A study of Homo sapiens with 6 samples.

Results

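The genes described here encode the proteins of the mitochondrial ribosome. They were chosen by name: every probe set that the array annotation gives exactly 1 gene symbol, where that symbol is MRPS (mitochondrial ribosomal protein, small subunit) or MRPL (large subunit) followed by a number and at most 1 letter from A to C. The rule found 75 genes on 140 probe sets, out of 19775 genes and 54613 probe sets tested. Of these, 27 genes carry a small subunit name and 48 a large subunit name. The rule used no expression values, but the family was chosen with earlier results of these data known.

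The arrays were Affymetrix U133 Plus 2.0, hybridized with RNA of PC9 cells, an EGFR-mutant line of non-small cell lung cancer. There were 3 arrays of drug-tolerant persisters (DTPs), the cells that survive exposure to the EGFR kinase inhibitor erlotinib, and 3 arrays of parental cells given the vehicle DMSO. All cells of both groups carried a GFP vector. DTPs received 2 µM erlotinib for 9 days from a confluency of 80% and were harvested on day 10. By the sample protocol, parental cells were taken on day 3 when fully confluent (100%), whereas the design text and the methods give vehicle and drug alike for 9 days, and which of these holds could not be settled. Time in culture, cell density and drug therefore cannot be told apart under the protocol's account. Because DTPs are survivors, selection of a subset and change within cells cannot be told apart either. Here "rose" and "fell" compare DTPs with parental cells and say nothing of a course over time. The methods call the study's replicates biological in general, while the labels do not say that these arrays came from separate cultures, and p-values then cover the spread among these 6 arrays alone.

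Mitochondria keep a small genome that encodes core subunits of the respiratory chain, and a dedicated ribosome in the matrix translates them. The RNA of that ribosome is transcribed inside the organelle, whereas all of its proteins are encoded in the nucleus, made in the cytosol and imported. Some of these proteins descend from bacterial ribosomal proteins and others are found only in mitochondrial ribosomes. Their many genes have to be expressed together for the particle to form, and their promoters often hold binding motifs of the ETS factor GABP (also called NRF2) and of YY1.

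With 3 arrays per group, the number of arrays limits the precision. The arrays resembled each other closely within groups, with Pearson's r across probe sets of 0.99679 to 0.99788. Across groups it was 0.97013 to 0.9754. As a sign of RNA quality, the 3′ minus the 5′ control signal of β-actin (log2 scale) lay between 0.03 and 0.08 in DTPs and between 0.14 and 0.19 in parental cells (two-sided exact permutation test, p = 0.10, the smallest that 3 against 3 arrays allow). Epithelial markers (EPCAM, CDH1 and keratins) averaged between 13.63 and 13.68 in DTPs and between 13.5 and 13.53 in parental cells on the log2 scale, and all 5 were above the median of all probe sets (7.29). The 8 fibroblast markers averaged between 7.3 and 7.41 in DTPs and between 7.01 and 7.09 in parental cells, and 4 of them were below that median in both groups. The rise of this mean came from COL1A1, a collagen gene (2.67, called higher), and the other 7 had values between -0.26 and 0.13. For 3 blood cell markers the means were 6.48 to 6.65 in DTPs and 6.49 to 6.56 in parental cells, and for 3 endothelial markers 8.16 to 8.32 in DTPs and 8.43 to 8.58 in parental cells. Of these, 2 blood cell markers and 0 endothelial markers were below the median in both groups. Most of the endothelial difference came from PECAM1 (-0.69, called lower), and the other 2 were at -0.11 and -0.09. The part of RNA quality or of other cell types in the differences below was not tested.

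Short promoter stretches of the 3 members that passed the study's criteria (MRPS10, MRPS31 and MRPL52) and of MRPS18A, picked after their values were seen, are shown first, to place motifs of GABP and YY1 in genes that fell and in one that rose. The sequences are from RefSeq (GRCh38.p14), each is 28 bases long and runs 5′ to 3′ on the strand of the gene, and the motif is in capitals. The letters searched, on both strands, were CCGGAAG (the ETS motif that GABP binds), AAGATGG (the core of the YY1 motif) and GCATGCG (the core of the motif of nuclear respiratory factor 1, NRF1). The last 3 letters of the ETS motif are also the first 3 of the YY1 motif, so matches could overlap, and the YY1 motif holds an ATG.
MRPS10, ETS motif, chr6:42217866-42217893, minus strand: cgctgtaaccCCGGAAGcaatcctgaga
MRPS10, YY1 motif, chr6:42217835-42217862, minus strand: cgggaccggcAAGATGGcggcgcggaca
MRPS31, ETS motif, chr13:40771205-40771232, minus strand: aggcgccaggCCGGAAGcggaagagagg
MRPS18A, ETS motif, chr6:43687805-43687832, minus strand: gcgctacgttCCGGAAGcggaaatggac
MRPS18A, YY1 motif, chr6:43687765-43687792, minus strand: taggtttttgAAGATGGcggccctcaag
MRPL52, ETS motif on the opposite strand, chr14:22829872-22829899, plus strand: gccacgcctaCTTCCGGctaccccggct
MRPL52, YY1 motif, chr14:22829779-22829806, plus strand: acgatgacccAAGATGGcggagccgtga

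Relative to the annotated gene start, where negative positions lie before it, the ETS motif began at -22 in MRPS10, -32 in MRPS31, -31 in MRPS18A and -5 in MRPL52. The YY1 motif shown began at base 10 of the gene in both MRPS10 and MRPS18A, and at -98 in MRPL52, which held another at -64, whereas MRPS31 held no YY1 letters. Promoters of 300 bases (250 before and 50 after the first listed start) were matched for 67 of the 75 members. The ETS letters were in 28 of the 67 (41.8%), against 14.4% of the promoters of 15384 genes on the array and 10.3% of all 35116 promoters listed. The YY1 letters were in 22 (32.8%), against 6.45% and 5.84%. The NRF1 letters were in 7 (10.4%), against 5.19% and 3.91%. MRPL52, which rose, and MRPS10, which fell the most, both held the ETS and the YY1 letters. The NRF1 letters were in MRPL52, at -175, and not in MRPS10, MRPS31 or MRPS18A. Among the matched members that fell at the threshold given below, 20 of 43 (46.5%) held the ETS letters and 13 (30.2%) the YY1 letters. Among the other members these were 8 of 24 (33.3%) and 9 (37.5%). The NRF1 letters were in 4 of the 43 that fell (9.3%) and in 3 of the other 24 (12.5%). Such matches describe the letters of these windows and not sites in use.

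Most mitochondrial ribosomal protein genes were lower in DTPs than in parental cells, by small amounts. At an adjusted p under 0.05 (limma, Benjamini-Hochberg over all 19775 genes), 45 of the 75 members fell (60.0%), 4 rose and 26 did not pass. Over all genes, 24% fell and 20.4% rose at that threshold. The median log2 fold change of the members was -0.24 (quartiles -0.35 and -0.06), against -0.05 over all genes, and 61 of the 75 members had a negative value (81.3%), against 58.8% of all genes. In 47 members every DTP array was below every parental array and in 7 every DTP array was above, whereas 21 overlapped. Over all genes, 29.8% were wholly below and 23.9% wholly above.

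Few of these changes were large. At the study's criteria, an adjusted p under 0.05 together with a fold over 1.5, only MRPS10 and MRPS31 were called lower and only MRPL52 higher. Over all genes 6.13% were called lower and 8.08% higher, so calls were not more common among the members than elsewhere on the array. The members were read on bright probe sets. Their chosen probe sets had means between 8.98 and 12.95 on the log2 scale, and all 75 lay above the median of all probe sets. Set against the 12898 genes that remained when dim probe sets were left out, 49 members fell and 4 rose, where 30.5% of those genes fell and 29% rose. At the fold minimum the calls were again MRPS10, MRPS31 and MRPL52, against 8.71% of those genes called lower and 10.9% called higher.

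**Figure D1:**
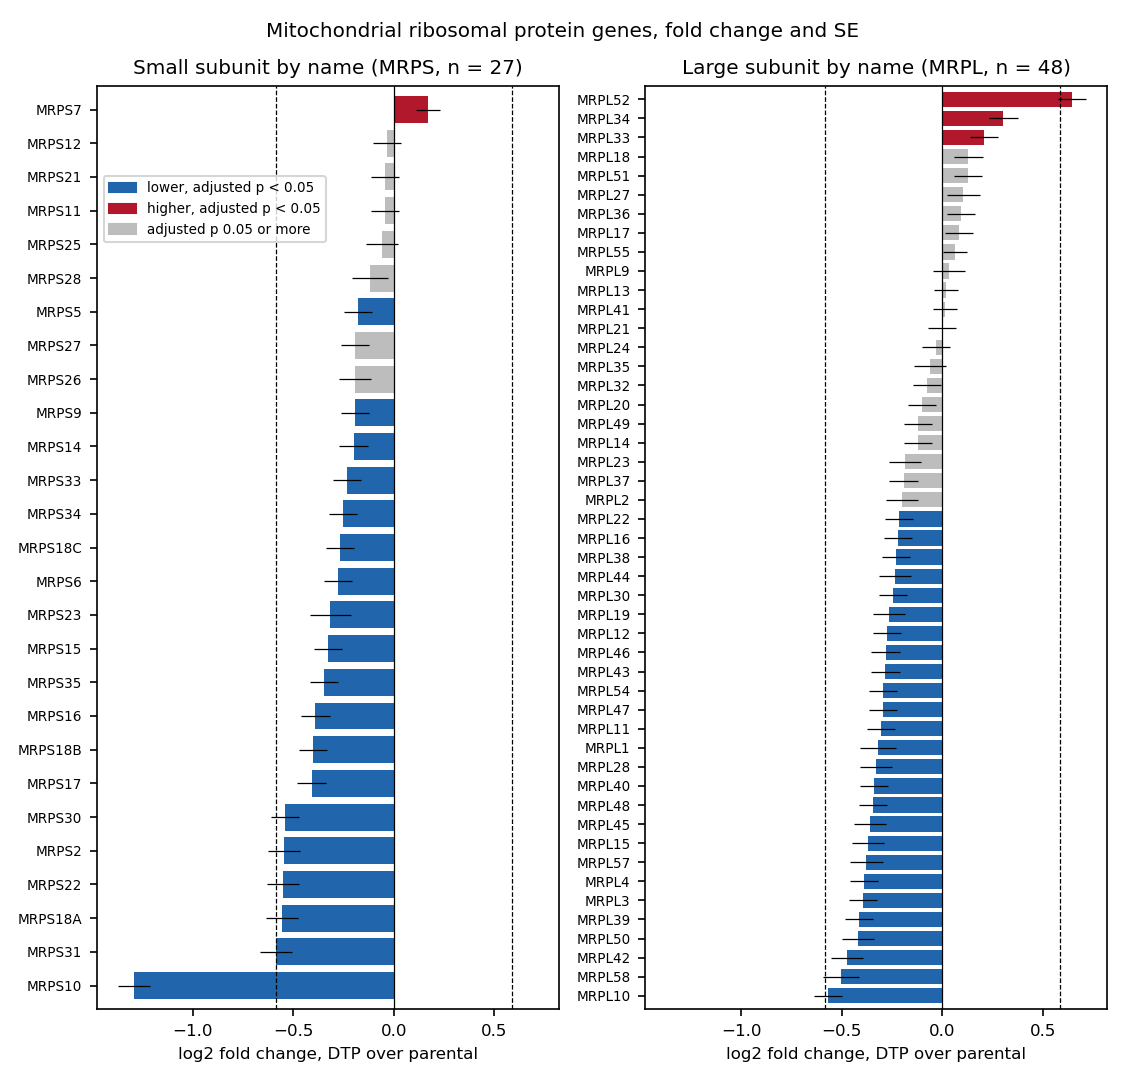
Log2 fold change (DTP over parental) of the 75 members, with small subunit names on the left and large subunit names on the right. Bars are limma estimates from 3 DTP and 3 parental arrays, lines are their standard errors, dashed lines mark a fold of 1.5, and colours mark the adjusted p. Bars point left for 26 of 27 MRPS genes and for 35 of 48 MRPL genes, and MRPS10 stands apart at -1.29.

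The gene with the largest change was MRPS10, which encodes a small subunit protein of the bacterial S10 family. It read 10.39, 10.39 and 10.65 in DTPs, against 11.74, 11.82 and 11.75 in parental cells (log2 scale). The groups lay more than 1 log2 unit apart, and MRPS10 was 2.45-fold lower in DTPs (log2 fold change -1.29 ± 0.08 SE, n = 3 per group, limma adjusted p = 5.1e-08). Its other probe sets gave -1.13 and -1.23, and both were called lower as well.

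MRPS31, a small subunit protein found only in mitochondrial ribosomes, read 10.27, 10.35 and 10.51 in DTPs, against 10.9, 11.01 and 10.96 in parental cells. Its log2 fold change of -0.59 ± 0.08 (limma adjusted p = 3.9e-05) sat almost on the fold minimum, which is 0.585 on this scale. A second MRPS31 probe set gave -0.51 and a dimmer one -0.19.

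MRPS18A, MRPS22, MRPS2, MRPS30 and MRPL10 fell by nearly as much as MRPS31 and stayed inside the fold minimum. MRPS22, a mitochondria-specific small subunit protein, read 10.18, 10.21 and 10.42 in DTPs, against 10.84, 10.79 and 10.83 in parental cells (-0.55, limma adjusted p = 7.5e-05). All 4 of its probe sets are of the _x_at class, whose probes may also bind transcripts of other genes, and gave values between -0.55 and -0.48. MRPS2, a relative of bacterial S2 that was not in the naming rule and is given after its values were seen, read 10.37, 10.53 and 10.57 in DTPs, against 10.98, 11.03 and 11.11 in parental cells (-0.55, limma adjusted p = 6e-05).

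At the other end of the small subunit, MRPS7, of the bacterial S7 family that organizes the head of the subunit, read 10.77, 10.78 and 10.84 in DTPs, against 10.62, 10.65 and 10.62 in parental cells. It was the 1 small subunit gene that rose, by 0.17 with a limma adjusted p of 0.049, and that call was lost when any single array was left out (adjusted p 0.071 to 0.12). MRPS12 (-0.04, adjusted p = 0.71), the relative of the bacterial decoding-site protein S12, did not pass. Neither did MRPS21 (-0.04, 0.66) nor MRPS11 (-0.05, 0.64), relatives of bacterial S21 and S11. The DTP and parental arrays of these 3 genes overlapped, and their sign turned positive when cytosolic ribosomal proteins or spike-ins were used to centre the arrays.

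Among the large subunit genes the largest fall was that of MRPL10, whose bacterial relative L10 anchors the stalk that recruits translation factors. It read 10.73, 10.85 and 10.91 in DTPs, against 11.43, 11.35 and 11.42 in parental cells (-0.57, limma adjusted p = 2.5e-05). MRPL12, the stalk protein itself and also a partner of the mitochondrial RNA polymerase, read 10.32, 10.34 and 10.45 in DTPs, against 10.57, 10.72 and 10.65 in parental cells (-0.28, adjusted p = 0.0064). The 2 stalk genes thus fell without overlap between the groups, with a smaller value for MRPL12.

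MRPL58 (also called ICT1) is a peptidyl-tRNA hydrolase of the release factor family that became part of the large subunit. It read 10.21, 10.28 and 10.58 in DTPs, against 10.78, 10.9 and 10.91 in parental cells (-0.50 ± 0.09, limma adjusted p = 0.00067). Mitochondria-specific proteins followed. MRPL42 read 11.28, 11.23 and 11.5 in DTPs, against 11.83, 11.77 and 11.83 in parental cells (-0.47, adjusted p = 0.00032). MRPL50 read 10.33, 10.47 and 10.52 in DTPs, against 11.0, 10.78 and 10.8 in parental cells (-0.42, adjusted p = 0.00092). DTP and parental arrays of all 3 genes stood apart.

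The large subunit also held 3 of the 4 genes that rose. MRPL52, a mitochondria-specific protein, read 10.67, 10.72 and 10.79 in DTPs, against 10.0, 10.17 and 10.08 in parental cells, a rise of 1.56-fold (0.65 ± 0.07, limma adjusted p = 9.1e-06). Its second probe set, below the median of the array, gave 0.21 with an adjusted p of 0.057 over all probe sets. MRPL34, of the bacterial L34 family, read 10.22, 10.24 and 10.32 in DTPs, against 9.94, 9.94 and 9.99 in parental cells (0.30, adjusted p = 0.0021).

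MRPL33, of the L33 family, read 12.34, 12.24 and 12.35 in DTPs, against 12.07, 12.11 and 12.13 in parental cells (0.21, limma adjusted p = 0.023). It no longer passed without replicate 1 of either group or replicate 2 of the parental cells (0.062 to 0.079). MRPL18 (0.13, adjusted p = 0.16), a relative of bacterial L18, did not pass, although its arrays did not overlap (12.15, 12.17 and 12.32 in DTPs, against 12.13, 12.05 and 12.06 in parental cells). At the edge of the threshold, MRPS7 was the last member inside with an adjusted p of 0.049, and MRPL37 (-0.19), named after its values were seen, was just outside at 0.05.

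**Figure D2:**
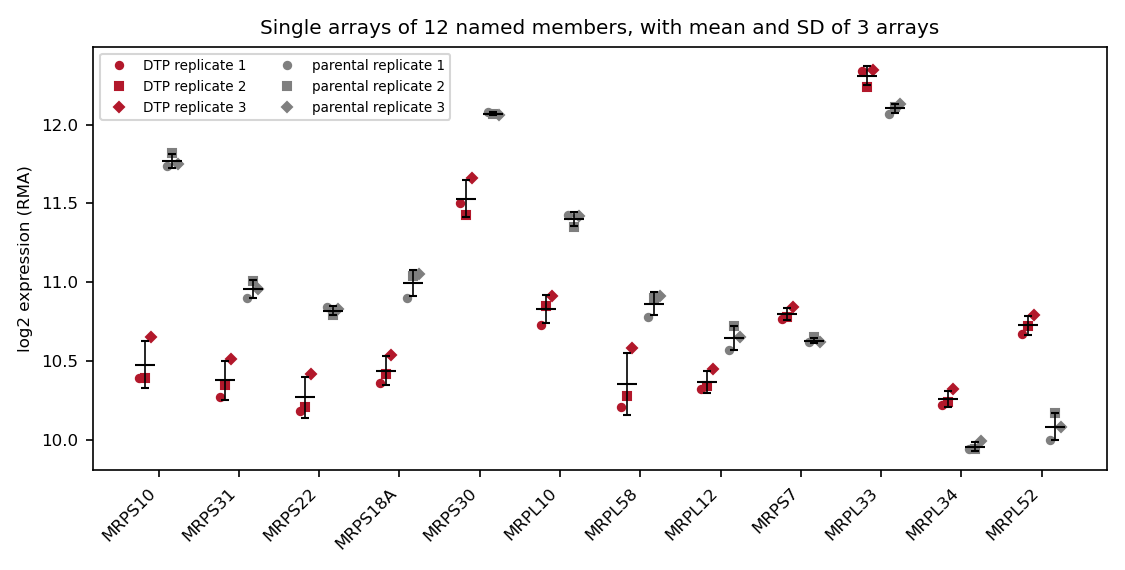
Log2 expression of 12 members on each array, DTP in red left of parental in grey, with the mean and SD of 3 arrays as black lines. The arrays of the 2 groups stand apart in each of these genes, and the diamond of DTP replicate 3 is the highest DTP value in all 12. Most of the 12 were picked for large changes, so that they stand apart was largely fixed by the choice. Of all 75 members 21 overlapped. Over all genes 29.8% were wholly below and 23.9% wholly above.

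The names of the subunits do not always give the place of the protein. The 3 MRPS18 genes are paralogs related to bacterial S18, and the product of MRPS18A, like that of MRPS30, sits in the large subunit. MRPS18A read 10.36, 10.42 and 10.54 in DTPs, against 10.9, 11.04 and 11.05 in parental cells (-0.56, limma adjusted p = 5.2e-05), and its second probe set gave the same value. MRPS18B read 11.32, 11.4 and 11.46 in DTPs, against 11.82, 11.77 and 11.79 in parental cells (-0.40, adjusted p = 0.0003). MRPS18C read 10.82, 10.86 and 11.01 in DTPs, against 11.15, 11.17 and 11.19 in parental cells (-0.27, adjusted p = 0.0077). All 3 paralogs fell, and whether they differed from each other was not tested. MRPS30 read 11.5, 11.43 and 11.66 in DTPs, against 12.08, 12.07 and 12.06 in parental cells (-0.54, adjusted p = 5.2e-05), whereas its 2 dimmer probe sets gave -0.12 and -0.16 and did not pass.

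By name, the small subunit moved a little more than the large one. Of the 27 MRPS genes 19 fell, 1 rose and 7 did not pass, with a median of -0.27 and 26 negative values. Of the 48 MRPL genes 26 fell, 3 rose and 19 did not pass, with a median of -0.22 and 35 negative values. The medians differed by -0.05 (small minus large). With MRPS30 and MRPS18A counted where their proteins sit, 17 of 25 small subunit genes fell (median -0.25) and 28 of 50 large subunit genes fell (median -0.23), a difference of -0.02. No test of this difference was made, since the members were chosen with results of these data known.

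Means over genes were taken on each array, and they gave a larger small minus large difference than the medians above. Relative to the parental mean, the small subunit genes averaged -0.38, -0.35 and -0.20 on the DTP arrays and -0.01, -0.01 and 0.01 on the parental arrays. The large subunit genes averaged -0.23, -0.21 and -0.06 on the DTP arrays and 0.00, -0.01 and 0.01 on the parental arrays. Every DTP array was thus below every parental array for both subunits. The small minus large difference of means was -0.15, -0.14 and -0.14 on the DTP arrays and -0.01, 0.01 and 0.00 on the parental arrays. That of the median log2 fold changes was -0.05. Both are by name. Without MRPS10, in an alternative chosen after seeing the data, the difference of means was -0.11, -0.10 and -0.11 in DTPs, and by place in the ribosome -0.11 on each DTP array.

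DTP replicate 3 gave the highest DTP values, nearest to the parental cells for members that fell and farthest for those wholly above. It held the highest of the 3 DTP values in 72 of the 75 members (96.0%) and the lowest in 0, where over all genes it was highest in 41.3% and lowest in 36.4%. Of the 47 members whose DTP arrays were all below the parental ones, it was the nearest to them in 46, against 53.5% of all such genes. Of the 7 members whose DTP arrays were all above, DTP replicate 1 was the nearest in 6 and DTP replicate 3 in 0. Without this array the median of the members was -0.29, 50 members fell and 8 were called lower, namely MRPS2, MRPS10, MRPS18A, MRPS22, MRPS30, MRPS31, MRPL10 and MRPL58. Over all genes the median was then -0.03, and 23.3% fell and 20.2% rose. The share of all genes called lower without this array is not given here.

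**Figure D3:**
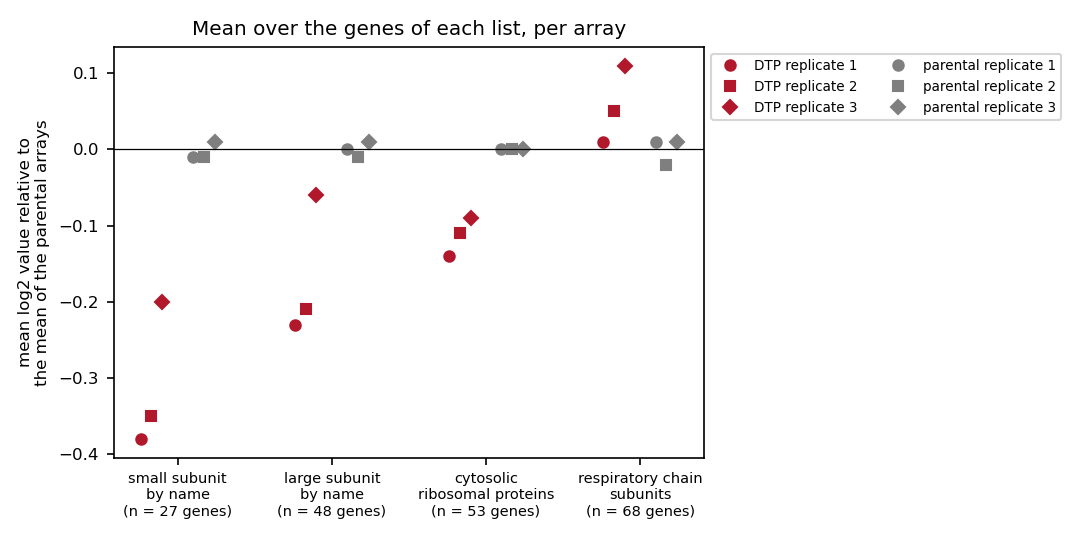
Mean log2 value over the genes of 4 lists on each array, relative to the mean of the 3 parental arrays, with DTP in red left of parental in grey. The DTP arrays lie between -0.38 and -0.20 for the small subunit and between -0.23 and -0.06 for the large subunit, between -0.14 and -0.09 for cytosolic ribosomal proteins and between 0.01 and 0.11 for the respiratory chain.

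The probe sets of 1 gene did not always give the same answer. A total of 38 members had 1 probe set and 37 had more, up to 5. Tested over all 54613 probe sets, 69 of the 140 member probe sets fell (49.3%), 12 rose and 59 did not pass, where 20.1% of all probe sets fell and 18.6% rose. At the fold minimum, 5 were called lower and 5 higher, against 4.93% and 7.56% of all probe sets. Those called lower belonged to MRPS10, MRPS31 and MRPL19, and those called higher to MRPS5, MRPS11, MRPS25, MRPL4 and MRPL52.

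Of the 65 probe sets not chosen to stand for their gene, the 44 at or above the median of the array had a median of -0.22, with 24 that fell and 4 that rose. The 21 dimmer ones had a median of -0.04, with 2 that fell and 5 that rose. The called rise of MRPS11 came from such a dim probe set (0.60, 6.72 in DTPs against 6.12 in parental cells), and the chosen probe set gave -0.05. The called fall of MRPL19, a relative of bacterial L19 named here after its values were seen, came from a probe set at 7.69 in DTPs against 8.49 in parental cells (-0.80), and its chosen probe set gave -0.26.

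In 5 members, probe sets passed the adjusted p in opposite directions. MRPS25, a mitochondria-specific small subunit protein, had a chosen probe set without a difference past the test (-0.06), a dimmer one that read 7.91, 7.98 and 8.14 in DTPs against 7.06, 6.76 and 6.53 in parental cells (1.23, limma adjusted p = 7e-06 over all probe sets), and another at -0.21 (adjusted p = 0.034). MRPL4, whose bacterial relative lines the exit tunnel, fell on its brighter probe sets (-0.39 and -0.24). Its dimmest one rose by 0.92 (8.73, 8.69 and 9.01 in DTPs, against 7.94, 7.95 and 7.8 in parental cells).

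MRPS5, of the bacterial S5 family, gave -0.18 and -0.23 on its brighter probe sets, of which the second passed over all probe sets, and 0.44 and 0.96 on its dimmer ones, which both passed. MRPL42 gave -0.47 and -0.40 on its brighter probe sets and 0.27 on a dim one. MRPS14, of the S14 family, gave -0.20 on the bright and 0.44 on the dim probe set. In all 5 genes each probe set that rose was dimmer than the chosen one, which the choice of the brightest probe set fixes in advance. Where on the transcript each probe set lies was not examined. With the mean of all probe sets in place of the brightest, MRPL4 was at 0.10, MRPS14 at 0.12 and MRPS5 at 0.25 (limma adjusted p = 0.24, 0.17 and 0.0054), and these 3 changed sign. Under the same setting MRPS25 was at 0.32 (adjusted p = 0.0033), MRPS11 at 0.28 (0.0054) and MRPS12 at 0.11 (0.19), and 55 of the 75 members were negative. The direction of these 6 genes depends on the probe set rule. They are not all of the members that changed sign, since 55 is a net count.

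**Figure D4:**
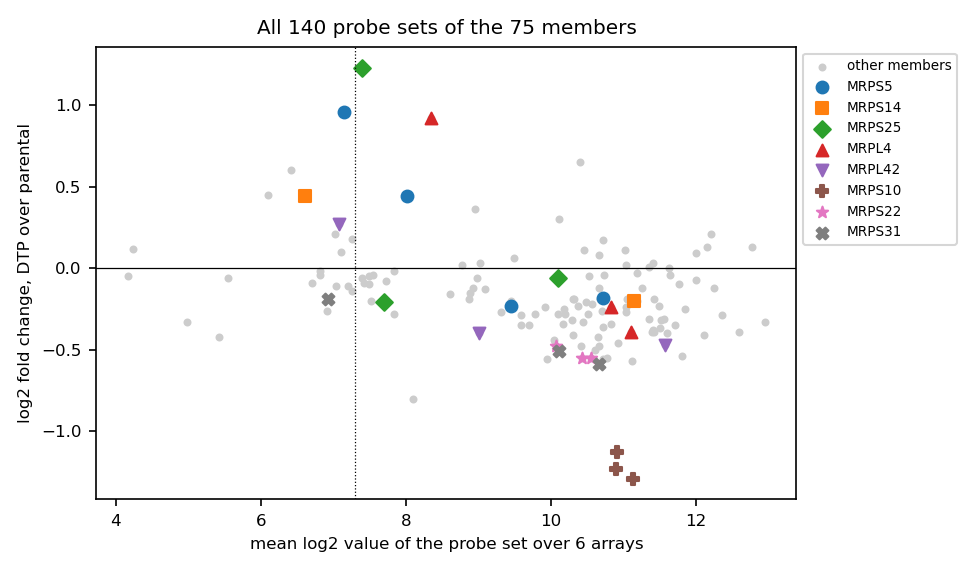
Log2 fold change (DTP over parental) of all 140 member probe sets against their mean log2 value over 6 arrays, with 8 genes marked and the median of all probe sets (7.29) as a dotted line. The 3 probe sets of MRPS10 lie together near -1.2, whereas the dimmer probe sets of MRPS25, MRPS5 and MRPL4 lie well above 0 and their brighter ones below it.

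The genes that build, regulate and use this ribosome were read from lists chosen with earlier results known, and their counts stand against 24% of all genes that fell and 20.4% that rose. Of 4 mitoribosomal proteins under other names, DAP3 fell (-0.30, limma adjusted p = 0.0041), a GTP-binding small subunit protein that read 11.7, 11.76 and 11.89 in DTPs against 12.09, 12.04 and 12.12 in parental cells. The other 3, named outside the rule, did not pass, namely PTCD3 (-0.11), CHCHD1 (-0.09) and GADD45GIP1 (0.17). Of 16 mitochondrial translation factors 10 fell and 0 rose (median -0.33). The initiation factor MTIF2 averaged 11.3 ± 0.094 in DTPs and 12.02 ± 0.016 in parental cells (log2 scale, SD, n = 3 each) and was called lower (-0.72, limma adjusted p = 2.7e-06). MTRFR, a ribosome rescue factor, also passed the fold minimum (-0.67, adjusted p = 2e-05).

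Of 27 genes for mitoribosome assembly and rRNA modification, 13 fell and 3 rose (median -0.18). RPUSD3, a pseudouridine synthase family protein of the RNA granules in the matrix, was called lower (-0.65, limma adjusted p = 0.00011), and TFB1M, which methylates the small subunit rRNA, fell by 0.57 (adjusted p = 2.8e-05). Of 14 genes for mitochondrial transcription and its regulators, 10 fell and 1 rose (median -0.30). MYC, a transcription factor that drives ribosome and mitochondrial biogenesis, read 11.72, 11.55 and 11.74 in DTPs, against 13.16, 13.04 and 13.01 in parental cells (-1.40, adjusted p = 1.4e-08). NRF1, whose motif was searched above, was also called lower (-0.76, adjusted p = 2e-06).

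For the factors whose motifs are common in these promoters, named outside the rule, the values were mixed. GABPB1, the activating subunit of GABP, read 9.37, 9.33 and 9.61 in DTPs, against 10.13, 10.15 and 10.2 in parental cells (-0.72, limma adjusted p = 1e-05), whereas its DNA-binding partner GABPA did not pass (-0.04, adjusted p = 0.69). YY1 read 12.14, 12.2 and 12.32 in DTPs, against 12.54, 12.58 and 12.58 in parental cells (-0.35, adjusted p = 0.0012). Any part of these factors in the members' values was not tested.

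The lists that follow had medians nearer 0 than that of the members (-0.24) or above 0. Of 23 general mitochondrial proteins 11 fell and 2 rose (median -0.17, lower quartile -0.48, against -0.35 for the members). At the fold minimum 4 of the 23 were called lower, against 2 of the 75 members and 6.13% of all genes. The lowest were the import protein TIMM44 (-1.33) and the matrix protease LONP1 (-1.18). The chaperonin HSPE1, named outside the rule, was called higher (0.71). Of the 53 measured cytosolic ribosomal proteins (79 listed), 14 fell and 2 rose (median -0.11). Negative values were held by 48 of them (90.6%), against 81.3% of the members. In 41 of the 53 every DTP array was below every parental array, against 47 of the 75 members and 29.8% of all genes. Their median level was 14.42 on the log2 scale, where the highest of all genes was 15.02. Any part of this high level in their small values was not tested. RPL36A, called higher (0.94), was read on a dim probe set (6.39 in DTPs against 5.44 in parental cells). RPL27A was called lower (-0.69) on a probe set far below the median level of the list (8.94 in DTPs against 9.63 in parental cells). Of 68 respiratory chain subunits, which include the proteins that assemble with the products of the mitochondrial ribosome, 10 fell and 18 rose (median 0.07). ATP5F1C, an ATP synthase subunit, was called higher on a probe set near the median of the array (0.80), and COX6B1, of cytochrome c oxidase, rose by 0.54 (limma adjusted p = 1.7e-05). On the DTP arrays the mean of the cytosolic ribosomal proteins was -0.14, -0.11 and -0.09 relative to the parental mean, and that of the respiratory chain 0.01, 0.05 and 0.11. The differences between these lists and the members were not tested.

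The size of the shift depends on what the arrays are set against. Quantile normalization makes the distributions of the arrays alike and hides a change of total mRNA per cell. Both centrings below were made on values already normalized in this way, so neither can recover such a change. Centred on the cytosolic ribosomal protein genes, 22 members fell and 10 rose with a median of -0.10. Of all genes 13.2% fell and 31.6% rose there, with a median of 0.09. Centred on the hybridization spike-ins, 9 members fell and 4 rose with a median of -0.09. Of all genes 9.38% fell and 24.1% rose there, with a median of 0.10, and 9 of 75 members is a share close to the first of these. Each centring moves all genes of an array by 1 amount, so the distance between the medians of the members and of all genes (-0.19) is fixed by construction. MRPS10 was called lower and MRPL52 higher under each scaling, whereas MRPS31 was no longer called under either centring or under cyclic loess. The sign of 11 members, none of them past the adjusted p, changed with the scaling.

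**Figure D5:**
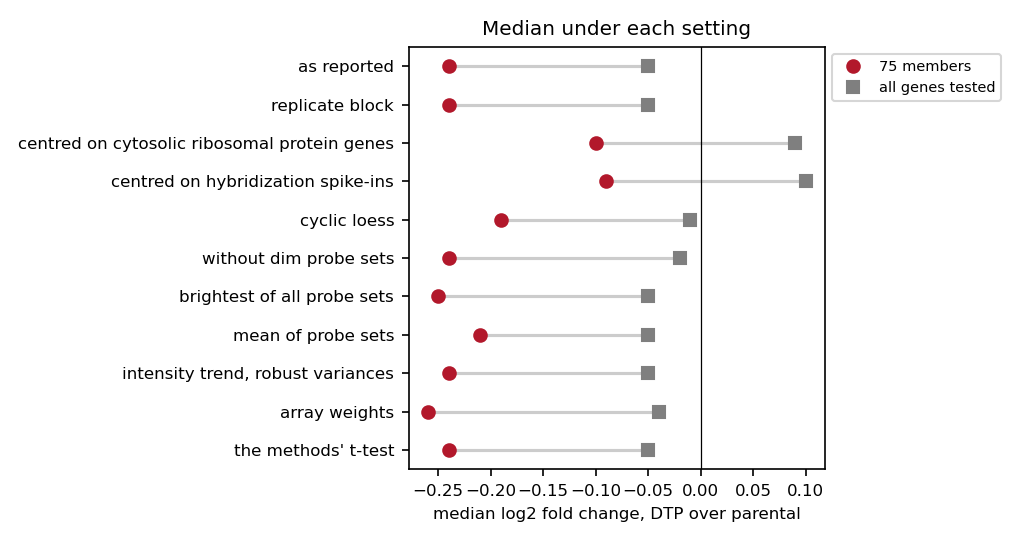
Median log2 fold change (DTP over parental) of the 75 members (red circles) and of all genes tested (grey squares) under each setting of the processing. Both centrings by construction move the pair of medians to the right together, to -0.10 and -0.09 for the members and 0.09 and 0.10 for all genes, and in each setting shown the members lie below all genes.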

How the data were processed

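Per the labels, total RNA was made into biotin-labelled cRNA with a 3′ IVT kit and hybridized to 6 arrays (3 DTP, 3 parental). The authors deposited log2 probe set summaries made by robust multi-array averaging (RMA, affy, quantile normalization); no version of these was given in the sources used here. Values are given for dim probe sets too, without a detection call. The array annotation gave 1 symbol for 41091 of 54613 probe sets, several for 1801 and none for 11721. Each gene was read on its brightest probe set without the suffix _x_at, or on an _x_at probe set where it had no other (2 members). The 2 groups were set against each other by two-sided tests in limma (version 3.58.1, R 4.3.3) without covariates, over genes and separately over probe sets, with Benjamini-Hochberg adjustment. The fit was tested on simulated data with independent noise for each gene and no shift shared by the genes of an array. That test therefore does not bear on counts of members that move together. The members and all lists were chosen with earlier results of these data known. The genes named were all called members, the 4 largest rises and falls of each subunit, the MRPS18 paralogs, MRPS30, MRPL12, members with opposing probe sets and up to 2 genes of each other list, and exceptions are marked. Files name no genome build, so coordinates are those of the promoter table alone. Replicate numbers were checked as pairs, and same-numbered arrays did not deviate together (r = -0.1187, 0.01577 and -0.05999). Alternatives covered the replicate block, each array left out, other scalings, probe set rules, variance models and thresholds, and the methods' t-test.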

Additional observations from a re-analysis of the deposited data

How the results depend on the processing

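As reported, 45 members fell and 4 rose, and 2 were called lower and 1 higher. With the replicate number as a block, 43 fell and 3 rose, 2 were called lower and 1 higher, and the adjusted p of MRPS7 (0.082) and MRPS5 (0.068) no longer passed. Of all genes 23.0% fell and 19.9% rose with the block. Apart from the calls as reported, counts of calls in this paragraph have no share over all genes beside them. They show how calls move with the setting, and not whether members were called more often than other genes. Leaving out 1 array at a time, 34 to 50 members fell, 2 to 3 rose, 1 to 8 were called lower, and the small minus large difference ran between -0.06 and -0.03. In these fits 20.2% to 23.3% of all genes fell and 18.6% to 20.2% rose. The highest count of called members came without DTP replicate 3. Without DTP replicate 1, DTP replicate 2, parental replicate 2 or parental replicate 3, MRPS31 was not called. Centred on cytosolic ribosomal proteins, 22 fell, 10 rose and 1 was called lower, with medians of -0.10 (all), -0.13 (small) and -0.09 (large). Of all genes 13.2% fell and 31.6% rose under this centring. Centred on spike-ins, which averaged 10.89 to 11.1 in DTPs and 11.06 to 11.26 in parental cells (two-sided exact permutation test, p = 0.20), 9 fell and 1 was called lower, with medians of -0.09, -0.12 and -0.08. Of all genes 9.38% fell under the spike-in centring. Cyclic loess called 1 lower (difference -0.04). With the mean of probe sets 7 rose, 1 was called lower and 0 higher (difference -0.03), and MRPL4 (0.10), MRPS14 (0.12), MRPS5 (0.25), MRPS11 (0.28), MRPS12 (0.11) and MRPS25 (0.32) changed sign, of which MRPS11, MRPS25 and MRPS5 passed as rises. With array weights, 4 were called lower. An adjusted p under 0.01 left 2 rises. A fold minimum of 2 called 1 lower and 0 higher, and one of 1.2 called 35 lower and 2 higher. Over all probe sets, 5 members had a probe set called higher. The small minus large difference, -0.05 as reported, was -0.04 with the brightest of all probe sets, -0.01 over probe sets, -0.02 by place in the ribosome and, in an alternative chosen after seeing the data, -0.04 without MRPS10. The methods' t-test gave 36 falls and 4 rises, where 17.6% of all genes fell and 17.6% rose. Members near 0 changed sign without passing: under the ribosomal and spike-in centrings MRPS12 (0.10 and 0.11), MRPS21 (0.09 and 0.10), MRPS11 (0.09 and 0.10) and MRPS25 (0.08 and 0.09), under cyclic loess MRPS12 (0.01), and with 1 array left out MRPS21 (-0.10 to 0.01), MRPS11 (-0.09 to 0.00) and MRPS25 (-0.14 to 0.02). For single named genes, 330 values kept direction and side of the threshold, 34 no longer passed, 2 newly passed and 18 changed sign. The cause of these changes was not tested.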

Other observations

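Probe sets that the annotation gives 2 symbols, and 1 renamed gene, were outside the rule. The probe set shared by MRPL51 and SPTLC1 read 10.07, 10.11 and 10.14 in DTPs, against 9.94, 9.82 and 9.95 in parental cells (0.20, limma adjusted p = 0.041 over all probe sets). The one shared by MRPS24 and its readthrough with URGCP gave 0.18 (adjusted p = 0.058), and the one shared by MRPL53 and CCDC142 gave -0.28 (adjusted p = 0.0073). KGD4, formerly named MRPS36 and now placed in the 2-oxoglutarate dehydrogenase complex, read 10.58, 10.72 and 10.64 in DTPs, against 10.88, 11.04 and 11.03 in parental cells (-0.34, adjusted p = 0.0022).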
